A study of Mus musculus with 6 samples.

Results

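The SR family of splicing factors was followed through 10 genes of the count table: Srsf1, Srsf2, Srsf3, Srsf4, Srsf5, Srsf6, Srsf7, Srsf9, Srsf10 and Srsf12. They were taken by symbol, written there in capitals (SRSF1, SRSF2, SRSF3 and so on), from the 24982 symbols of that table, and the same 10 symbols were read from the FPKM table. Srsf1 is also the gene that the study set out to delete, so it was both the target and a member. The KO mice carried floxed Srsf1 alleles and a Cre transgene (labelled Srsf1-flox/flox dLck.Cre), and were compared with mice labelled WT, with nothing stated about whether they carried Cre. Cre driven by the distal promoter of the T cell kinase gene Lck acts in T cells that are late in maturation. All 6 mice, 3 per genotype, were of strain B6.129 and 8 to 10 weeks old. Natural regulatory T cells (nTreg cells), sorted from spleen as CD4+CD25+CD127lo, were kept in culture with anti-CD3 and anti-CD28 at 2 µg/ml and IL-2 at 10 ng/ml, over 72 h. One sample field of the labels names effector CD4 T cells in place of nTreg cells.

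SR proteins pair RNA-recognition motifs with a tail rich in arginine and serine. They bind enhancer sequences in exons and draw the U1 particle and the U2AF factor to the neighbouring splice sites, and kinases of the SRPK and CLK families control where they act by phosphorylating the tail. Several members also limit their own level: when the protein is abundant it favours inclusion of a poison exon or retention of an intron in its own transcript, which nonsense-mediated decay then removes. In T cells, SRSF1 is known to control splicing and expression of signalling and cytokine genes. Of the 10 members, 8 have at least 1 transcript annotated for nonsense-mediated decay in GENCODE M21, and the other 2 are Srsf10 and Srsf12. The deposited tables give 1 value per gene, so productive and decay transcripts were not separated.

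Promoters are shown for Srsf1, the targeted gene, for Srsf3, the member whose pattern over the 6 libraries was nearest to that of Srsf1, and for Srsf2, whose pattern was far from it. Each run is the 250 bases before the annotated start, 5′ to 3′, from RefSeq on GRCm38.p6, while the deposited counts were made on mm9. Capitals mark 3 motifs searched on both strands, so that each may stand as its reverse complement: the CCAAT box, the TATA box spelled as TATAAA, and the GC box spelled as GGGCGG.
Srsf1 (chr11:88047123-88047372, + strand): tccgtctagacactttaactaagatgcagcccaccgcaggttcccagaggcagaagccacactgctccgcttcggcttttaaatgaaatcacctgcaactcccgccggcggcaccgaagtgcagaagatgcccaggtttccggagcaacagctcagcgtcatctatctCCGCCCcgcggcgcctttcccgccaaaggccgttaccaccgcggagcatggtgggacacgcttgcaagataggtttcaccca
Srsf3 (chr17:29032410-29032659, + strand): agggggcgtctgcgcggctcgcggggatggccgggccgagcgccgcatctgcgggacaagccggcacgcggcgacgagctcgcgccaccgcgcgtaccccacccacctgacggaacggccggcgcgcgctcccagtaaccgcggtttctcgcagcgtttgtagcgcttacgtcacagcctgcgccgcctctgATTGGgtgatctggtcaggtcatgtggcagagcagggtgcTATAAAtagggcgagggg
Srsf2 (chr11:116853095-116853344, - strand): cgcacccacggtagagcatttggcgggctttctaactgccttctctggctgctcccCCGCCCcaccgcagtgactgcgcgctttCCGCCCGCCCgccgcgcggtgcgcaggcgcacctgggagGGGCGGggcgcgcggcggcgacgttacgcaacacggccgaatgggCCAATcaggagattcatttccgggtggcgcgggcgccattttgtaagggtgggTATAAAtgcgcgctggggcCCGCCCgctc
The Srsf1 window held 1 GC box, as its reverse complement, and neither of the other motifs; in the Srsf2 window a pair of GC boxes overlap. The Srsf3 and Srsf2 windows both held a TATAAA near the start and a CCAAT in one orientation. In windows of the same length before 27025 mouse genes, GGGCGG in either orientation was present in 33.0% and CCAAT in 34.5%, and TATAAA in 3507 of them. Among the 10 members, all of which had a window, 9 held GGGCGG, 3 held CCAAT and 2 held TATAAA. The 9 include Srsf5 and Srsf6, for which the bases after the window matched no transcript of the gene in GENCODE M21. The E-box CACGTG, searched in the same way, was in none of the 10 members' windows and in 6.0% of all windows. These matches describe the letters and say nothing of binding.

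Total gene counts were 10183626 to 20373649 in the KO libraries and 23263741 to 27562046 in the WT libraries, so every KO library was shallower. KO replicate 1 stood apart: its log2 CPM (CPM are counts scaled to library size, with TMM normalisation) correlated across genes with the others at r = 0.900 to 0.927, against up to 0.989 among the rest. The Treg lineage factor Foxp3 read 464, 357 and 413 CPM in KO against 160, 121 and 104 CPM in WT (log2 fold change +1.68, edgeR adjusted p = 0.197). Of the other Treg markers, Ctla4 was at 224 to 574 CPM in KO and 431 to 1105 CPM in WT, with log2 fold changes of -0.79 for Ctla4, +0.91 for Ikzf2 and +0.30 for Tnfrsf18, none past the threshold. Il2ra, which encodes CD25, was at 3300 to 6880 CPM in KO and 4073 to 6566 CPM in WT, and Il7r, which encodes CD127, at 39.1 to 144 CPM in KO and 107 to 263 CPM in WT. The CD8 markers Cd8a and Cd8b1 summed to 38.9 to 60.5 CPM in KO and 193 to 269 CPM in WT, and Cd8b1 was lower in KO (log2 fold change -2.68, edgeR adjusted p = 0.0166). Cd4 was at 425 to 503 CPM in KO and 238 to 316 CPM in WT. Summed markers were at 1.19 to 3.92 CPM in KO and 0.235 to 0.825 CPM in WT for NK cells, and at 0.226 to 0.501 and 0.0452 to 0.251 CPM for macrophages, whose markers Csf1r and Lyz2 are listed at 0 in all 6 libraries. B cell markers summed to 0.702 to 4.75 CPM in KO and 2.55 to 4.23 CPM in WT. The part of these markers in the values of the SR family was not tested, and in bulk samples fewer cells of a type and less RNA per cell cannot be told apart.

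Stimulated nTreg cells carried mRNA of 9 members at high levels and of Srsf12 at a trace. On the FPKM scale, which divides by transcript length and so allows genes to be compared, Srsf2 averaged 208 ± 46.1 FPKM in KO and 199 ± 55.5 FPKM in WT (SD, n = 3 each). Srsf2 binds exonic enhancers and is found in nuclear speckles. Srsf3, the smallest SR protein, which also takes part in mRNA export, averaged 177 ± 36.4 FPKM in KO and 227 ± 59.6 FPKM in WT. Srsf5 averaged 171 ± 52.2 FPKM in KO and 182 ± 7.03 FPKM in WT. These 3 led the order in both genotypes, with ranges that overlapped each other.

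Srsf1 held position 4 in both genotypes. It averaged 97.3 ± 23.2 FPKM in KO and 150.5 ± 34.7 FPKM in WT. In KO its range lay apart from that of Srsf5, which was above it, whereas in WT its range touched those of its neighbours on both sides. Among 11772 genes with a tested count, Srsf1 ranked 761st by mean FPKM in KO and 448th in WT. Srsf7, Srsf10, Srsf9 and Srsf6 followed, between 70.7 and 82.2 FPKM in KO and between 68.3 and 103 FPKM in WT. Of these, members next to each other by mean FPKM had ranges that overlapped in both genotypes. In WT the range of Srsf9 (up to 78.0 FPKM) lay below those of Srsf7 (from 82.0 FPKM) and Srsf10 (from 81.6 FPKM). In KO the range of Srsf6 (up to 76.6 FPKM) lay below that of Srsf7 (from 78.1 FPKM). Srsf4 averaged 50.1 ± 14.8 FPKM in KO and 36.9 ± 2.11 FPKM in WT, and its range lay below that of the member before it in WT but not in KO. Srsf12 averaged 0.151 ± 0.0464 FPKM in KO and 0.483 ± 0.188 FPKM in WT.

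**Figure D1:**
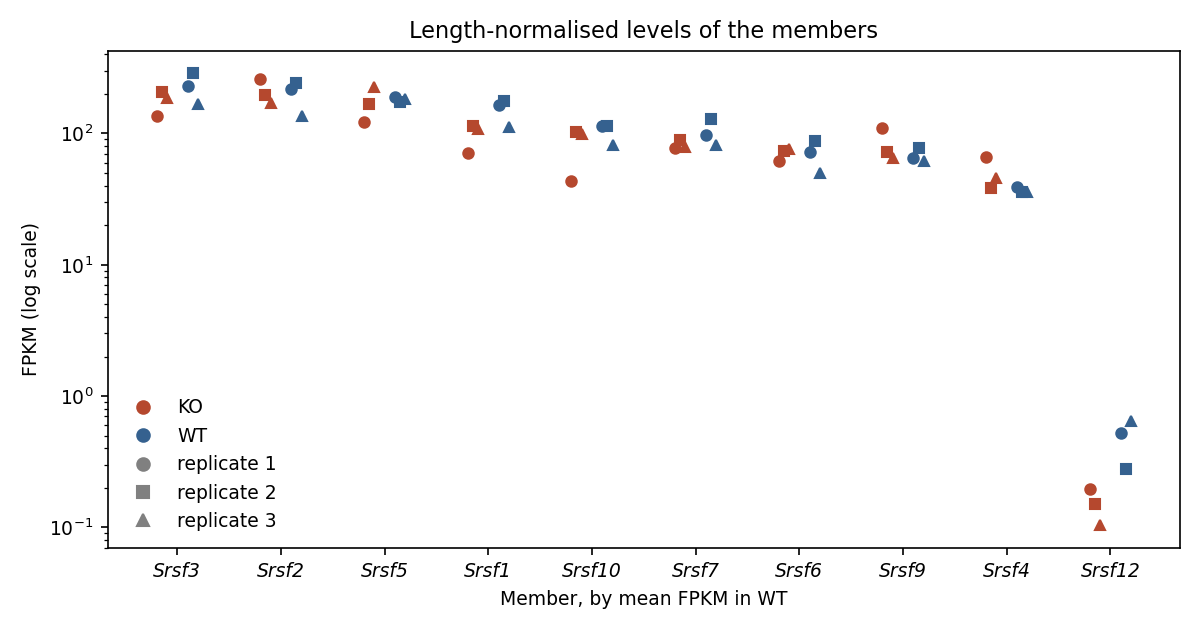
FPKM of each member (log axis) in each KO library (red, left) and WT library (blue, right), with members ordered by their mean in WT. The other 9 members lie between 35.6 and 287 FPKM, above Srsf12 at 0.104 to 0.647 FPKM.

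The comparison asked how deletion of Srsf1 in T cells is reflected in the mRNA of the family. None of the 10 members passed the test: edgeR's quasi-likelihood test with Benjamini-Hochberg adjustment called 0 of 10 members and 2 of 11772 genes (0.0170%, both lower in KO, and 0 higher in KO), and at an unadjusted p under 0.05 it held 1 of 10 members, Srsf12, against 7.51% of all genes. DESeq2 also called 0 of 10 members, against 1.10% of all genes, and limma-voom called 0 of 10. Without KO replicate 1 and WT replicate 3, edgeR called 80 genes and again 0 members. Of the 10 log2 fold changes (KO over WT), 3 were above 0 and 7 below, with a median of -0.25. Over all genes tested, 6074 were above 0 and 5698 below, with a median of 0.02. The summed CPM of the family was 2084, 2851 and 2847 in KO and 3492, 3644 and 2342 in WT. The WT replicate 3 sum thus lay between KO replicate 1 and the other 2 KO libraries.

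Srsf1, the target, was measured at 438, 812 and 787 CPM in KO replicates 1, 2 and 3 and at 1214, 1230 and 755 CPM in WT replicates 1, 2 and 3. The groups overlapped: the library labelled WT replicate 3 had less Srsf1 than KO replicates 2 and 3 had. The log2 fold change was -0.65 (SE 0.32, edgeR adjusted p = 0.682), and an exact two-sided permutation test over the 6 libraries returned p = 0.3 (0.1 is the smallest value possible with 3 and 3 libraries). Without KO replicate 1 the log2 fold change was -0.42 (edgeR adjusted p = 0.581). Without WT replicate 3 it was -0.85, and without both libraries, 2 against 2, it was -0.59 (SE 0.15, edgeR adjusted p = 0.122). Srsf1 counts were 7846 to 10756 in the KO libraries, so reads of the gene were plentiful in every one. The tables give no values per exon, so the floxed part was not checked on its own.

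**Figure D2:**
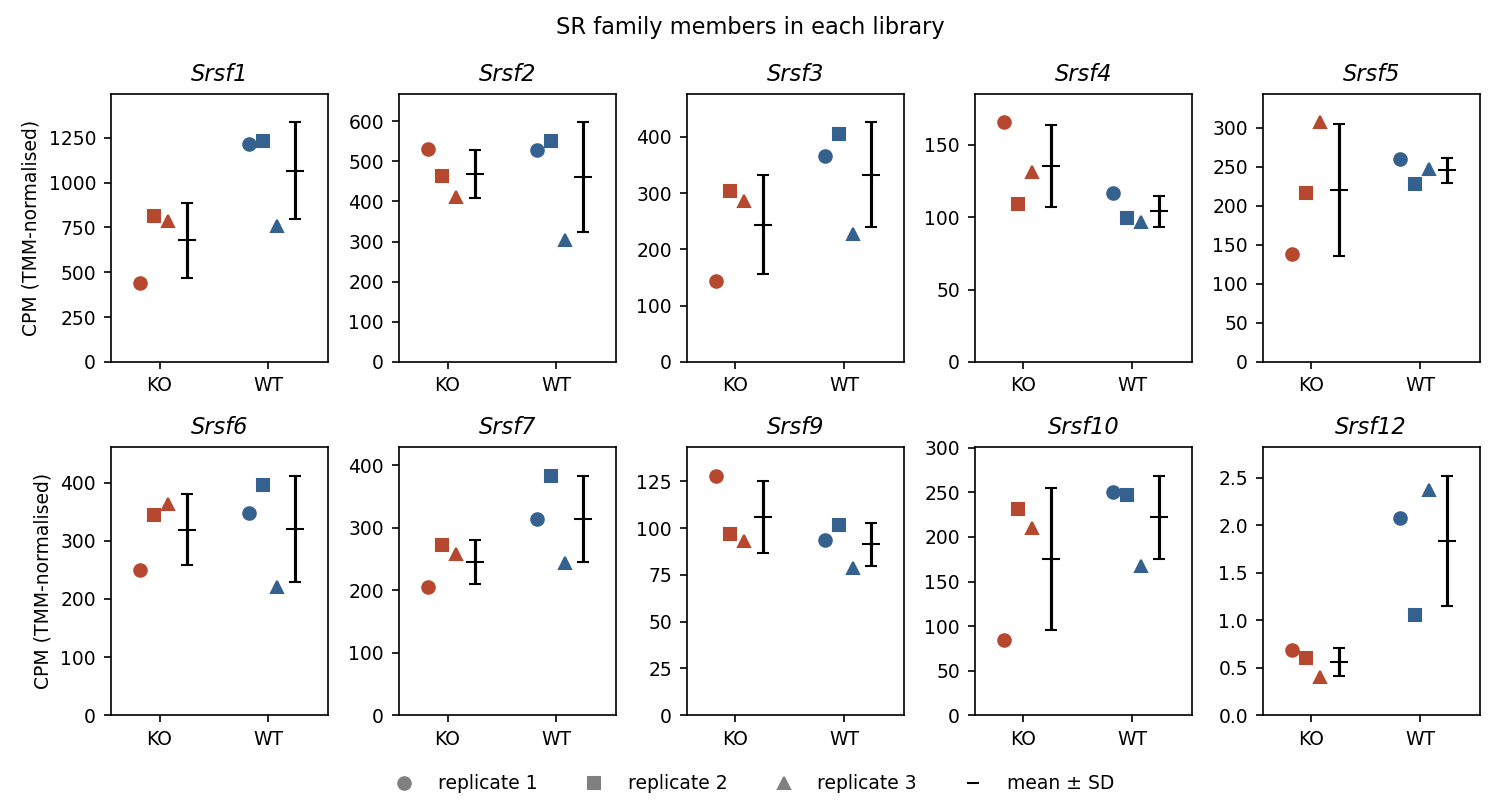
TMM-normalised CPM of each member in the 3 KO libraries (red) and 3 WT libraries (blue), each panel with its own axis from 0; bars give the mean ± SD of each group. Srsf12 is the member whose KO and WT libraries do not overlap, and in the Srsf1 panel the WT replicate 3 value of 755 CPM lies below 2 KO values.

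Srsf3 followed the same course over the libraries as Srsf1, with 143, 304 and 285 CPM in KO and 366, 405 and 227 CPM in WT. KO replicate 1 was the lowest library and WT replicates 1 and 2 the highest, with WT replicate 3 below 2 of the KO libraries. Its log2 fold change was -0.45 (SE 0.35, edgeR adjusted p = 0.754), and -0.17 without KO replicate 1. Srsf7, an SR protein with an added zinc knuckle, was at 205, 273 and 258 CPM in KO and 314, 383 and 244 CPM in WT (log2 fold change -0.35, SE 0.25, edgeR adjusted p = 0.753). WT replicate 3 again lay among the KO values. With 1 library left out the value ran from -0.51 to -0.19, and it was +0.08 with the correction for GC content and length. Srsf10, which represses splicing when it is dephosphorylated, as in mitosis or after heat shock, was at 84.6, 232 and 210 CPM in KO and 251, 247 and 167 CPM in WT. Its log2 fold change was -0.34 (SE 0.38), and -0.0055 without KO replicate 1.

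Srsf4 and Srsf9 had fold changes above 0. Srsf4 was at 166, 109 and 131 CPM in KO and 117, 99.5 and 96.8 CPM in WT, with only KO replicate 2 below a WT library, and a log2 fold change of +0.38 (SE 0.24, edgeR adjusted p = 0.728). Without KO replicate 1 it was +0.20. Srsf9, the member closest to Srsf1 in build, was at 128, 97.0 and 92.8 CPM in KO and 93.4, 102 and 78.8 CPM in WT. Its groups overlapped, and its log2 fold change of +0.22 (SE 0.23) was +0.06 without KO replicate 1.

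Srsf2, Srsf5 and Srsf6 stood near 0 on the log2 scale. Srsf2 was at 531, 464 and 410 CPM in KO and 527, 551 and 303 CPM in WT (log2 fold change +0.02, SE 0.28). Its value was -0.08 without KO replicate 1, -0.22 without WT replicate 3 and -0.28 (SE 0.15) without both. With all 6 libraries and no filter on low counts it was -0.01, so its sign was not settled. Srsf5 was at 138, 217 and 307 CPM in KO and 260, 229 and 247 CPM in WT (log2 fold change -0.15, SE 0.30). Its KO libraries spanned all of its WT values, and without KO replicate 1 the log2 fold change was +0.09. Srsf6 was at 249, 344 and 364 CPM in KO and 348, 396 and 220 CPM in WT (log2 fold change -0.01, SE 0.29), with values on both sides of 0 among the alternatives.

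Srsf12, which in human cells opposes other SR proteins, was the only member whose groups did not overlap, against 15.7% of all genes tested (8.18% lower in KO). It had 15, 8 and 4 counts in KO replicates 1, 2 and 3 and 46, 27 and 66 counts in WT replicates 1, 2 and 3. These correspond to 0.686, 0.604 and 0.401 CPM in KO and 2.08, 1.06 and 2.37 CPM in WT. The log2 fold change was -1.66 (SE 0.52, unadjusted p = 0.0113, edgeR adjusted p = 0.529), and it ran from -1.95 to -1.44 with 1 library left out. All 3 WT libraries but only 2 of the KO libraries reached the 0.458 CPM that the filter on low counts asks of 3 libraries, so its place among the genes tested rested on the WT group, and the fold change came from few reads.

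**Figure D3:**
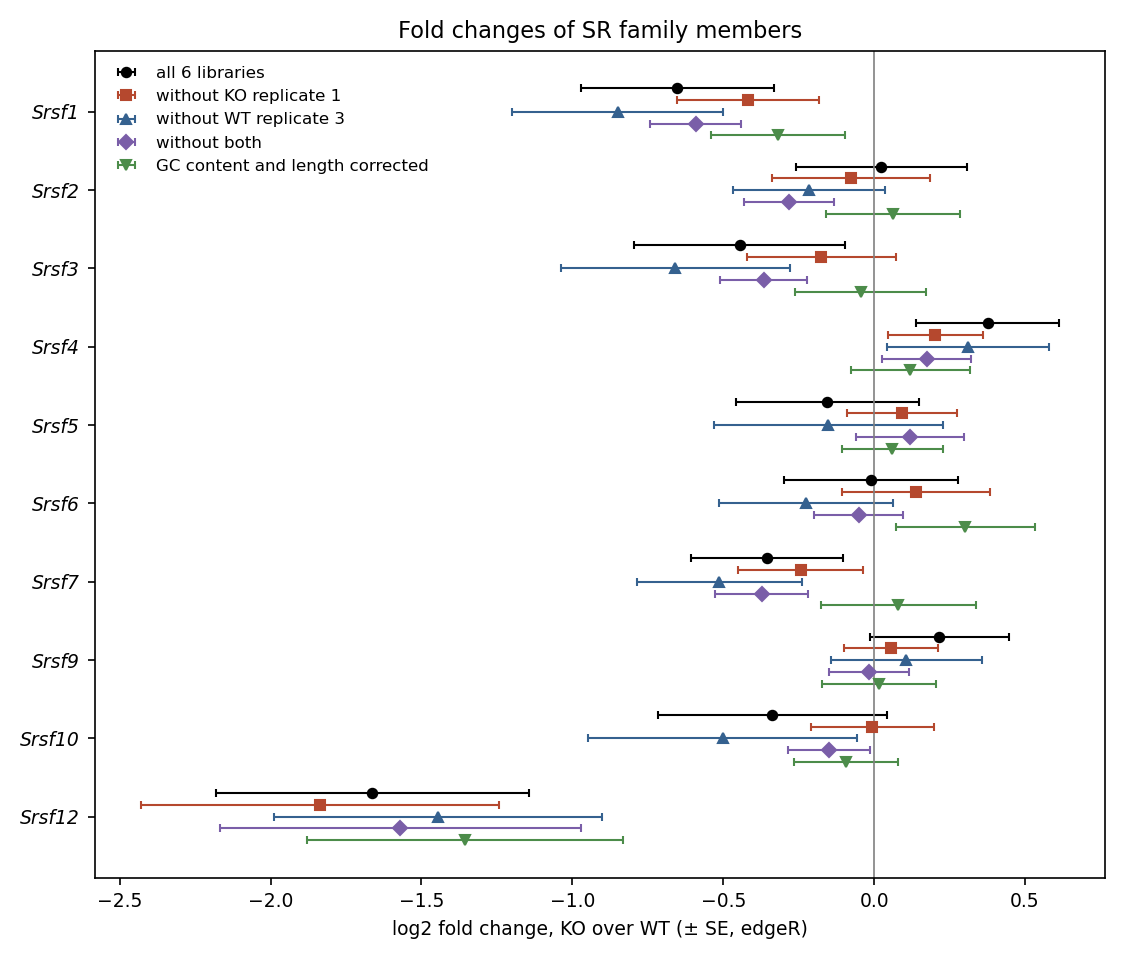
log2 fold change (KO over WT, ± SE) of each member from edgeR with all 6 libraries, without KO replicate 1, without WT replicate 3, without both, and with a correction for GC content and length. The Srsf1 values run from -0.85 to -0.32, the Srsf12 values run from -1.84 to -1.36, and the other members lie between -0.66 and +0.38.

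In KO replicate 1, most members stood above or below the other KO libraries by the GC content of their transcripts. On the log2 scale KO replicate 1 minus the mean of KO replicates 2 and 3 was -0.87 for Srsf1 (40.6% GC), -1.04 for Srsf3 (40.0%) and -1.38 for Srsf10 (41.4%). It was +0.47 for Srsf4 (56.8%) and +0.43 for Srsf9 (56.2%). Srsf5 and Srsf12 had nearly the same GC content (44.6% and 44.9%) but stood apart, at -0.90 for Srsf5 and +0.40 for Srsf12, which has few reads. In all, 6 members were lower in KO replicate 1 than in the other KO libraries. The genes tested had the same order: the median of that difference was -1.07 for genes under 45% GC, -0.31 from there to just under 50% and +0.74 for genes of 50% or more. With GC content and length corrected, an alternative added after the data were seen, the log2 fold change was -0.32 (SE 0.22) for Srsf1, -0.04 for Srsf3, +0.12 for Srsf4, +0.02 for Srsf9, -0.09 for Srsf10 and -1.36 (SE 0.52) for Srsf12, none past the threshold. It was +0.06 for Srsf2, and it moved to the other side of 0 for Srsf5 (+0.06), Srsf7 (+0.08) and Srsf6 (+0.30, SE 0.23). Whether base composition accounts for these differences was not tested beyond that correction.

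WT replicate 3 also differed from its own group. Against the mean of WT replicates 1 and 2 on the log2 scale, 8 members were lower in it: Srsf2 by -0.83, Srsf3 and Srsf6 by -0.76 each, Srsf1 by -0.69, Srsf10 by -0.57, Srsf7 by -0.51, Srsf9 by -0.31 and Srsf4 by -0.15. Srsf5 was at +0.02 and Srsf12 at +0.64. For this library the median difference was -0.11 for genes under 45% GC, -0.05 from there to just under 50% and +0.09 for genes of 50% or more. That is the order seen in KO replicate 1, over a smaller range. Whether base composition accounts for the low members was not tested. Most of the family was therefore low together in the 1 WT library that overlapped KO for Srsf1.

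**Figure D4:**
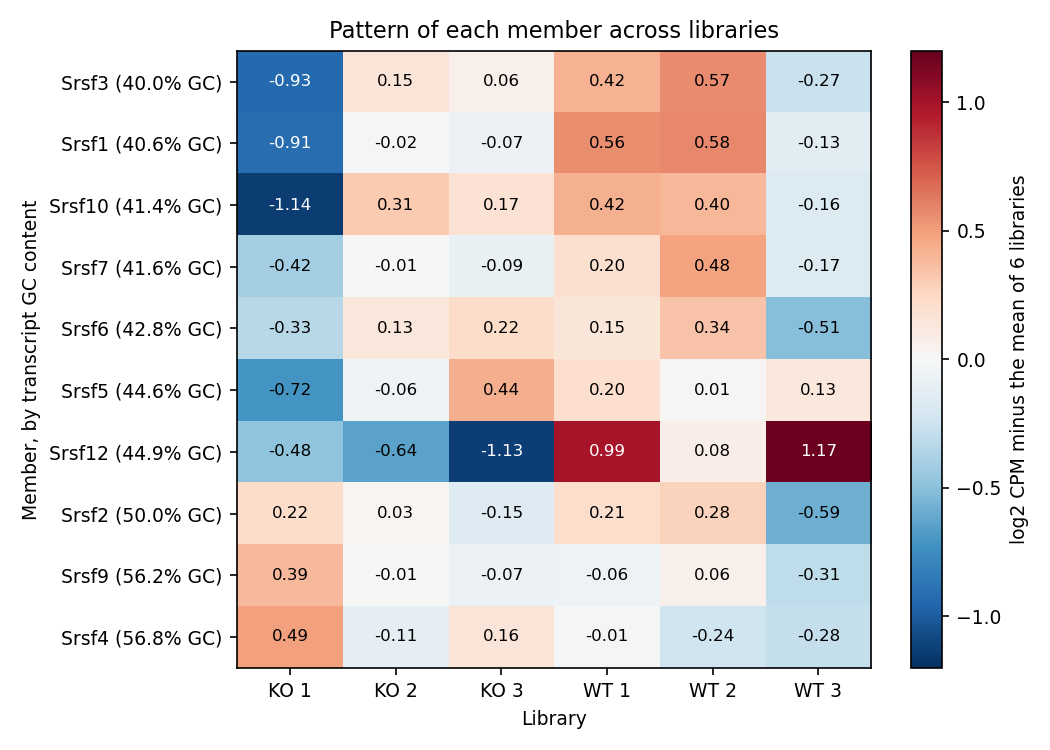
Each cell gives log2 CPM of a member minus its mean over the 6 libraries, with members from low (top) to high (bottom) transcript GC content and KO libraries left of WT libraries. In KO replicate 1 the 7 members at the top are below 0 and the 3 at the bottom above 0. Of these 7, Srsf12 is lower still in KO replicates 2 and 3.

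Ratios of counts between members within a library need no scaling between libraries, so they were compared as well, a step chosen after the values were seen; the ratio itself is not a difference in level, since the genes differ in length. The Srsf1 to Srsf6 ratio was 1.76, 2.36 and 2.16 in KO and 3.49, 3.10 and 3.44 in WT. WT replicate 3, in which both genes were low, here stood with the other WT libraries. The Srsf1 to Srsf2 ratio was 0.825, 1.75 and 1.92 in KO and 2.30, 2.23 and 2.49 in WT. The Srsf1 to Srsf7 ratio, between genes of similar GC content, was 2.13, 2.98 and 3.04 in KO and 3.86, 3.21 and 3.09 in WT. The 3 sets did not overlap, the last by a narrow gap.

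Srsf1 was thus lower in every KO library than in every WT library relative to 5 of the 9 other members: Srsf2, Srsf4, Srsf6, Srsf7 and Srsf9. Relative to all other genes tested, the same held for 26.0%. Relative to Srsf3, the ratio was 3.06, 2.67 and 2.76 in KO and 3.32, 3.04 and 3.33 in WT, and relative to Srsf10 it was 5.18, 3.50 and 3.74 in KO and 4.84, 4.98 and 4.51 in WT. In both, KO replicate 1 was the KO library that reached the WT values. With KO replicate 1 left out, Srsf1 was lower relative to 7 of the 9 members, against 30.8% of all other genes tested. Relative to Srsf5 the groups overlapped either way. Relative to Srsf12, which has few counts, Srsf1 was then higher in KO than in WT. Over the 45 pairs of members, 12 did not overlap, and 3 of these were pairs with Srsf12, which has few counts. The share over pairs of all genes tested was not computed, so this count has no background. Each of the 12 had an exact two-sided permutation p of 0.1, the smallest that 3 against 3 libraries allow. That value is 0.375 after adjustment over the pairs. No pair could therefore pass the threshold by this test.

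**Figure D5:**
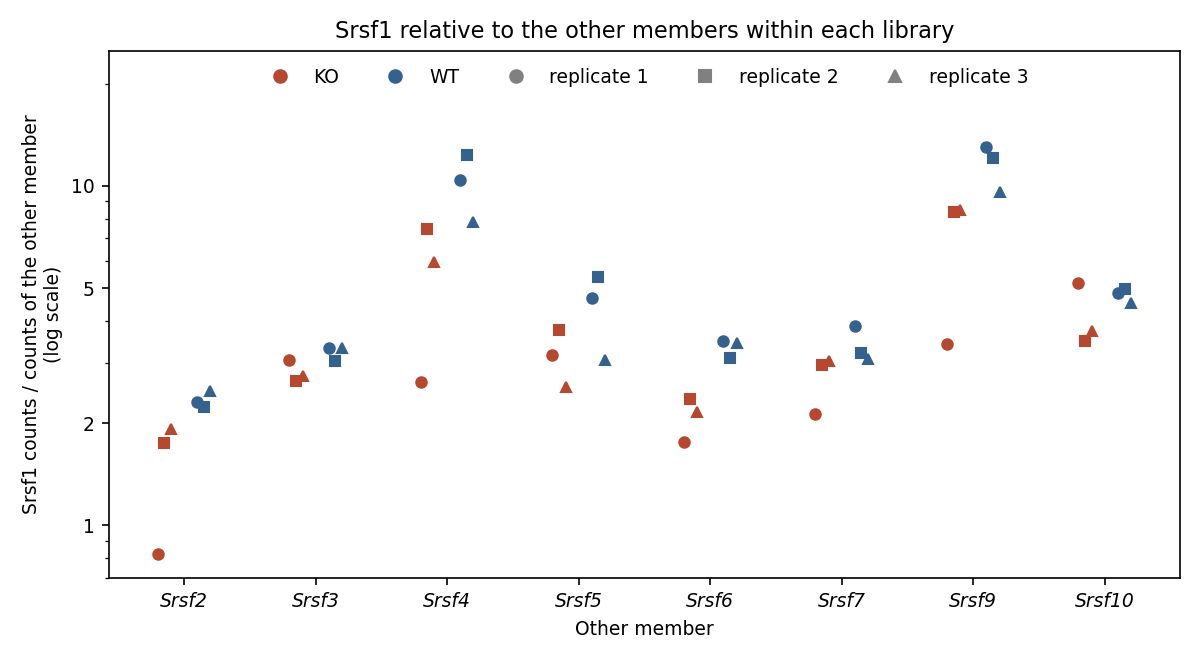
Counts of Srsf1 divided by counts of each other member in the same library (log axis), for KO (red, left) and WT (blue, right) libraries; Srsf12, with few counts, is left out. For Srsf6 the KO ratios are 1.76 to 2.36 and the WT ratios 3.10 to 3.49.

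As a share of the summed FPKM of the family, Srsf1 made up 7.47%, 10.7% and 10.2% in KO and 13.8%, 13.4% and 12.2% in WT. The KO and WT shares of Srsf1 did not overlap, and their means differed by -3.67 percentage points. The FPKM of Srsf1 did overlap, at 113 FPKM in KO replicate 2 and 111 FPKM in WT replicate 3. WT replicate 3 also had the lowest family sum, 911 FPKM, by which its share was divided. The shares of Srsf12, which has few counts, did not overlap either. They were 0.0208%, 0.0143% and 0.00984% in KO and 0.0444%, 0.0210% and 0.0710% in WT. Shares were not computed for other sets of genes, so the separation of Srsf1 and Srsf12 has no background. Srsf2 held 20.7% ± 5.95 in KO and 17.2% ± 1.92 in WT (SD, n = 3 each), with its largest share, 27.4%, in KO replicate 1. The difference of 3.43 percentage points was 0.0652 without that library. Srsf9 held 11.6%, 6.76% and 6.18% in KO and 5.52%, 5.89% and 6.78% in WT, with the same library on top. The share of Srsf6 was 6.50%, 6.99% and 7.25% in KO and 6.07%, 6.62% and 5.46% in WT. The FPKM table and the counts gave like differences: the mean log2 difference between KO and WT from FPKM minus that from CPM was 0.01 to 0.13 over the 10 members, largest for Srsf3. FPKM per CPM was highest in KO replicate 1 for all 10 members, at 0.957 for Srsf3 against 0.623 to 0.738 in the other libraries. The CPM are divided by a TMM factor, largest in that library (1.07, against 0.952 to 1.01 in the others). This ratio therefore also holds a scaling of the whole library.

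The genes whose pattern was most like that of Srsf1 were ranked by the root mean square difference of centred log2 CPM over the 6 libraries, among 8277 genes with a mean of at least 10 CPM. Nearest were Trdmt1, which encodes a tRNA methyltransferase (0.109), Armc1 (0.111), the copine gene Cpne3 (0.113), Skp1a, a subunit of SCF ubiquitin ligases (0.115), and Lrrc40 (0.118). Armc1 was at 43.9, 88.8 and 73.0 CPM in KO and 106, 113 and 78.5 CPM in WT, so it too was lowest in KO replicate 1. Srsf3 ranked 10th (0.121), Srsf10 198th (0.212) and Srsf7 472nd (0.254). Srsf5, Srsf6, Srsf2 and Srsf9 were farther away, and Srsf4 was at rank 5787 (0.714). Srsf12 was below the minimum level and was not ranked.

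Directions in the lists below stand beside those of all 11772 genes tested, of which 6074 were above 0 and 5698 below. For 15.7% of all genes tested the KO and WT libraries did not overlap. The same held for 1 of 7 kinases, 2 of 18 SR-related and transport genes and 2 of 15 decay and junction genes. It held for 0 of 10 partners at the splice sites and 0 of 20 hnRNPs. Kinases that phosphorylate SR proteins were below 0 in 6 of 7 tested genes (median log2 fold change -0.23), and 0 passed the test. Clk1, a nuclear kinase that releases SR proteins from speckles, was at 42.3, 114 and 117 CPM in KO and 147, 123 and 136 CPM in WT, which did not overlap (log2 fold change -0.57, SE 0.37). Clk2 stood at -0.42 and Clk3 at -0.23. Srpk2 stood at -0.33, with 27.5, 49.1 and 48.0 CPM in KO and 49.6, 39.9 and 66.7 CPM in WT. The cytoplasmic kinase Srpk1 was at 132, 163 and 198 CPM in KO and 181, 154 and 240 CPM in WT, with overlap.

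SR-related proteins and transport factors were above 0 in 7 of 18 genes (median -0.06). Srrm2, a scaffold of nuclear speckles, was at 1272, 1316 and 1395 CPM in KO and 967, 865 and 1105 CPM in WT, so that each KO library was above each WT library (log2 fold change +0.44, SE 0.22, edgeR adjusted p = 0.682). Acin1, an RS-rich protein of the exon junction complex, was at 369, 329 and 411 CPM in KO and 321, 265 and 272 CPM in WT (+0.37, SE 0.22). Scaf1 stood at +0.68, with 170, 52.0 and 70.7 CPM in KO and 57.3 to 67.8 CPM in WT, so its one high value was KO replicate 1. Sfswap stood at +0.32. None of the 18 genes passed.

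Partners at the splice sites (U1, U2AF and branch point factors) were above 0 in 7 of 10 genes (median +0.12), led by U2af1l4 (+0.29, SE 0.26). Sf3b1 stood at -0.35, with 413, 922 and 868 CPM in KO and 970, 885 and 946 CPM in WT. U2af2 stood at +0.24, with 337, 182 and 165 CPM in KO and 183, 235 and 163 CPM in WT. Among hnRNPs, which often oppose SR proteins, 8 of 20 were above 0 (median -0.04). Ptbp1, a repressor of exon inclusion, was at 1026, 680 and 562 CPM in KO and 568, 605 and 476 CPM in WT (+0.46, SE 0.28). Hnrnpa3 stood at -0.46, with 18.6, 47.7 and 41.8 CPM in KO and 47.2 to 52.7 CPM in WT. For Hnrnpa0, at +0.44, the KO libraries read 639, 253 and 317 CPM and the WT libraries 259 to 321 CPM. Hnrnph3 stood at -0.26. Nonsense-mediated decay and exon junction factors were above 0 in 10 of 15 genes (median +0.17). Smg5, which helps reset the decay helicase, was at 149, 80.1 and 84.4 CPM in KO and 67.5, 79.2 and 58.7 CPM in WT, without overlap (+0.61, SE 0.29, edgeR adjusted p = 0.673). Upf1, that helicase, was at 260, 113 and 110 CPM in KO and 98.4, 114 and 103 CPM in WT (+0.62, SE 0.35), with its one high value in KO replicate 1. Smg9, at +0.59, read 38.8, 17.5 and 17.1 CPM in KO and 14.7 to 17.6 CPM in WT. Smg6 stood at +0.29, and its groups did not overlap. Over the 5 lists 0 genes passed the test in either direction, by edgeR or DESeq2.

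Library-wide splicing was compared from the alignment report, also after its values were seen. Splices, of which a read can hold several, numbered 32.5, 28.8 and 29.8 per 100 uniquely mapped reads in KO and 30.0, 30.4 and 30.1 in WT (exact two-sided permutation p = 1). Splices absent from the aligner's annotation made up 1.11%, 0.899% and 0.970% of all splices in KO and 0.923%, 0.837% and 0.895% in WT (exact two-sided permutation p = 0.2). The highest value of each came from KO replicate 1, whose mismatch rate was 0.52%, against 0.32% to 0.43% in the other libraries.

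Reads of some members cannot be assigned with certainty, since the strand setting of the counting is not given in the sources used here. In GENCODE M21, Srsf2 overlaps Mettl23 and Mfsd11, Srsf1 overlaps Gm11508 and Srsf4 overlaps Gm12992 on the other strand. Srsf4 also overlaps A930004J17Rik on its own strand, where no strand setting would separate the reads.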

How the data were processed

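RNA from 6 nTreg samples was read as 75-base single ends from stranded mRNA libraries, and VIPER was the pipeline, per the labels' design text. STAR 2.4.2a made the alignments, per the file headers, and mm9 was the build, per the submitters' processing notes. How reads were counted is not given in the sources used here. The count table deposited by the authors holds raw whole numbers, 1 row per gene symbol. The deposited FPKM are normalised for length and depth, and the authors' alignment report gives read numbers and percent values. In 26 entries of the count table, with 0.271% of counts, a date stands for the symbol; they stayed in the library sizes and were not named.

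Groups and replicate numbers came from the sample titles; 3 mice per genotype are stated, so each library is taken as 1 animal, and no pair agreed within sampling noise (chi-square per degree of freedom of 22.0 or more). The test was edgeR 4.0.16 (R 4.3.3) with TMM scaling and the quasi-likelihood model, after filterByExpr at a minimum count of 10. Its p-values were adjusted by Benjamini-Hochberg over 11772 genes and called below 0.05. All 10 members passed the filter. Standard errors were taken from the F statistic. Alternatives were DESeq2 1.42.0, limma 3.58.1 (voom, or log2(FPKM + 1) and log2(FPKM + 0.1)), other scalings and filters, a replicate block, and left-out libraries. GC content and length came from the longest coding transcript in GENCODE M21 (99.2% of tested genes). A floor of 3 counts is 0.109 to 0.295 CPM.

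The members and lists were chosen with earlier results of these data known. Named genes were the 10 members, up to 4 genes of each list with the smallest p, 6 genes that check the sort, and the 5 nearest to Srsf1; Srpk1, Ctla4, Ikzf2 and Tnfrsf18 were added after their values were seen. A gene that this rule includes is not reported here.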

Additional observations from a re-analysis of the deposited data

How the results depend on the processing

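No member of the family, and in the fits on counts no gene of the related lists, passed the threshold under any alternative run. The Srsf1 log2 fold change stayed below 0 in all 19 alternatives, at -0.85 to -0.30 (adjusted p 0.122 to 0.999), and at -0.85 to -0.42 with 1 library left out. Srsf3, Srsf4, Srsf10 and Srsf12 also kept their direction; the smallest Srsf12 value, -0.36, came from log2(FPKM + 1), which understates low genes, and that gene could not be fitted with a minimum of 1 FPKM. Srsf6 was above 0 under library size scaling (0.039), limma-voom (0.015), the replicate block (0.012), log2(FPKM + 1) with and without a filter (0.051 each), log2(FPKM + 0.1) (0.052), GC content and length correction (0.30), and that correction with the block (0.32); with 1 library left out it ran from -0.23 to 0.17. Srsf2 was below 0 with no filter on low counts (-0.011) and 2 against 2 libraries (-0.28), and ran from -0.22 to 0.17 with 1 library left out. Srsf5 was above 0 with 2 against 2 libraries (0.12), GC correction (0.061) and that correction with the block (0.048), and ran from -0.48 to 0.093. Srsf7 was above 0 with GC correction (0.081) and with the block added (0.049), and Srsf9 was below 0 with 2 against 2 libraries (-0.018). The cause of these reversals was not tested. As a share of summed CPM in place of FPKM, Srsf1 differed by -7.88 and Srsf6 by 2.20 percentage points, since CPM weights long transcripts. Deviations of same-numbered replicates correlated at -0.36, 0.15 and 0.14, and whether the numbers pair the samples was not tested. With the replicate block Srsf1 stood at -0.67 (edgeR adjusted p = 0.931) and 0 members passed. Over all genes, edgeR called 2, against 6 with no filter on low counts, 1 with the replicate block, 0 to 3 with 1 library left out, 80 with 2 against 2 libraries, 15 with GC correction and 98 with that correction and the block; DESeq2 called 129 and limma-voom 1. With 4 to 66 counts per library, Srsf12 is the least precisely measured member.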
